A study of Homo sapiens with 9 samples.

Results

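The genes described here are CCN1 and 9 other genes of the YAP/TEAD pathway: the target genes CCN2 and ANKRD1, the targets AMOTL2, LATS2 and AJUBA that also act on the pathway, the co-activators YAP1 and WWTR1, and the DNA-binding partners TEAD1 and TEAD4. They were chosen by symbol and found in the table through their gene identifiers, which gave 10 of the 15354 genes. CCN1 was chosen by its own rise over control with both siRNAs in an earlier analysis of these libraries, so its values are given as a description, without a test. The other 9 genes were picked as pathway partners of CCN1 with earlier results of these data known.

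YAP1 and its paralogue WWTR1 (also called TAZ) are transcriptional co-activators that cannot bind DNA alone and act through the TEAD transcription factors. The Hippo kinases, ending in LATS1 and LATS2, phosphorylate both co-activators and hold them in the cytoplasm. When the kinases are inactive the co-activators enter the nucleus and raise genes such as CCN1 (formerly CYR61) and CCN2 (formerly CTGF), which encode secreted matrix proteins, and in the intestine the pathway is known for its part in regeneration and in colorectal tumours. Several targets feed back, among them LATS2 and AMOTL2, whose products restrain YAP1.

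The cells were HCT116, an established human colorectal carcinoma line, reverse transfected for 36 h with siRNA at 25 nM: either a non-targeting control siRNA, or siRNA A, or siRNA B, the last 2 designed against SNHG5, a long non-coding transcript. The dose is the one given with the samples, and the methods of the study give a higher one. Each group held 3 libraries, which the methods of the study call biological replicates, all from 1 cell line, with no other treatment in any group. SNHG5 went against its label: it was at 26.5 ± 4.66 in control, 65.9 ± 6.45 in the libraries labelled siRNA A and 47.5 ± 2.40 in those labelled siRNA B (TMM-scaled CPM, mean ± SD, n = 3 each), so every comparison below is one between labelled groups. The study itself reports a strong knockdown of SNHG5 by qRT-PCR with both siRNAs in HCT116 cells at 36 h. The dose it gives for that qRT-PCR is higher than the one given with these samples. The value here counts sequencing reads of the whole gene, and the cause of the disagreement was not tested. Levels are CPM, a gene's reads relative to the total of its library, scaled by the trimmed mean of M values (TMM), which brings the bulk of genes to a common level, and differences are in log2(CPM + 1), tested by limma over the 13893 genes that reached 1 CPM in at least 3 libraries, with Benjamini-Hochberg adjusted p-values and a threshold of 0.05. Library totals ran from 15566530 to 23277549 reads. The 6 epithelial markers were all present, with a summed level from 1784 to 1946 in control, from 3141 to 4122 with siRNA A and from 2417 to 2549 with siRNA B. That sum was mostly keratin (KRT8, KRT18 and KRT19), and the 6 did not move as a set: the keratins and CLDN7 were higher with siRNA A by 1.01 to 1.09, whereas EPCAM was lower (−0.55, limma, adjusted p = 0.00121) and CDH1 stood at 0.09 (adjusted p = 0.582). Of 6 fibroblast markers 4 were in the table, with LUM at 0 throughout, COL3A1 and PDGFRB at or near 0 and COL1A1 making up nearly all of a sum from 8.77 to 17.8. Of 6 blood and endothelial markers CD68 was in the table, at 0.524 to 1.36. The part of these marker levels in the results was not tested, and in such bulk samples fewer cells with a transcript and less of it per cell cannot be told apart.

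TEAD factors bind a short core, read as GGAATG on one strand and CATTCC on the other. RefSeq promoter windows (GRCh38.p14, 250 bases before to 50 after a gene's start) were at hand for 7 of the 10 genes, in 10 windows, and not for CCN1, TEAD1 and TEAD4. The core lay on either strand in 6 of those 10 windows and in 14.0% of all 35116 windows. It occurred 3 times for CCN2, which 0.128% of all windows equalled or passed, and 2 times for ANKRD1, which 1.37% equalled or passed. AJUBA, AMOTL2, LATS2 and YAP1 each held 1 core in 1 window, and the WWTR1 windows held none. A match is a description of the letters and no measure of binding. The 250 bases before the start are shown as examples for CCN2 (chr6:131951373-131951622), ANKRD1 (chr10:90921088-90921337), AMOTL2 (chr3:134374448-134374697) and YAP1 (chr11:102110197-102110446): the first 3 are targets that hold the core there and YAP1 is the co-activator with a core in its window. The target AJUBA also holds a core, 59 bases before the start of 1 window, and is not shown. The other AMOTL2 window, without a core, is not shown either. The first 3 genes are on the minus strand and YAP1 is on the plus strand, each sequence reads 5′ to 3′ along its gene, and capitals mark the TEAD core.
CCN2: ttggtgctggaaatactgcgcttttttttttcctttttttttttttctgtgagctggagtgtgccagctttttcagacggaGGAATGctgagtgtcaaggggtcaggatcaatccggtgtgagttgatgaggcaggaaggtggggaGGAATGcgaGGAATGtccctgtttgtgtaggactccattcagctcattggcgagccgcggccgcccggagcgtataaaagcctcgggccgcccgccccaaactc
ANKRD1: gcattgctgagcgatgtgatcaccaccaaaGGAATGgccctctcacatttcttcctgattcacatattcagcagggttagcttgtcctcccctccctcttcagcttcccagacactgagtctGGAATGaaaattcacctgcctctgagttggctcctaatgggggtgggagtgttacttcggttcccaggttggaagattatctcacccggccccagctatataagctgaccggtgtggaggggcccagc
AMOTL2: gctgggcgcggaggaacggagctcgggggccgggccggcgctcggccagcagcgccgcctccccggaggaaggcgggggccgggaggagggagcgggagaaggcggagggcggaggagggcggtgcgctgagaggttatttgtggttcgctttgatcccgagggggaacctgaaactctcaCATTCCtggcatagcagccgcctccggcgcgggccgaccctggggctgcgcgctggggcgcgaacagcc
YAP1: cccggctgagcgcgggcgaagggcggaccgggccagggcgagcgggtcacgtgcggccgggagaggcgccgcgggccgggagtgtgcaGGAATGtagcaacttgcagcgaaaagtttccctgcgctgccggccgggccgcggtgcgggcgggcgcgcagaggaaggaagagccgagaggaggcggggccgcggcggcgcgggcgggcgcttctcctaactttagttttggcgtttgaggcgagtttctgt
The core began 169, 104 and 95 bases before the CCN2 start, 220 and 128 before the ANKRD1 start, 69 before the AMOTL2 start and 162 before the YAP1 start.

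Apart from CCN1, 8 of the other 9 genes passed the filter on low values, and ANKRD1 did not. With siRNA A, 6 of the 8 were higher than control (AMOTL2, CCN2, YAP1, LATS2, AJUBA and WWTR1) and 0 lower, while 23.9% of all genes tested were called higher and 27.6% lower. With siRNA B, 3 of the 8 were higher (CCN2, AJUBA and AMOTL2) and 0 lower, against 15.6% and 18.3% of all genes. The median difference of the 8 genes was 0.81 with siRNA A and 0.25 with siRNA B, beside −0.02 and 0.0043 over all genes. Both comparisons used the same 3 control libraries. When the CPM values were compared by library totals alone, which moves the median of all genes to −0.34 for siRNA A and −0.18 for siRNA B, 4 of the 8 were called higher with siRNA A and 2 with siRNA B, and the share of higher among all called genes went from 46.4% to 16.1% and from 46.0% to 18.8%. AJUBA and WWTR1 with siRNA A and AMOTL2 with siRNA B were the calls that rested on the scaling.

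CCN1, a secreted matrix protein and immediate-early gene, showed the widest range of the 9 genes that passed the filter on low values. It lies at chromosome 1, 86046444 to 86050272 (GRCh37, plus strand), and overlaps no other annotated gene. Its control libraries held 30.7, 24.0 and 39.6 TMM-scaled CPM, the siRNA A libraries 219, 454 and 202, and the siRNA B libraries 113, 142 and 103. The groups did not overlap, every siRNA B library stood above every control library, and every siRNA A library above every siRNA B library. The means were 31.4 ± 7.83, 292 ± 141 and 119 ± 20.3 (SD, n = 3), that is 9.28 times control with siRNA A and 3.80 times with siRNA B. On the log2 scale the difference was 3.10 (95% interval of the fit 2.51 to 3.69) for siRNA A and 1.91 (1.32 to 2.50) for siRNA B. These intervals are no test, since the rise of CCN1 chose the gene, and they hold no correction for that choice. The siRNA A mean leaned on replicate 2, the library with the fewest reads, and without it the siRNA A difference was 2.73 and that between siRNA A and siRNA B went from 1.19 to 0.83. By library totals alone the differences from control were 2.74 and 1.70.

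**Figure D1:**
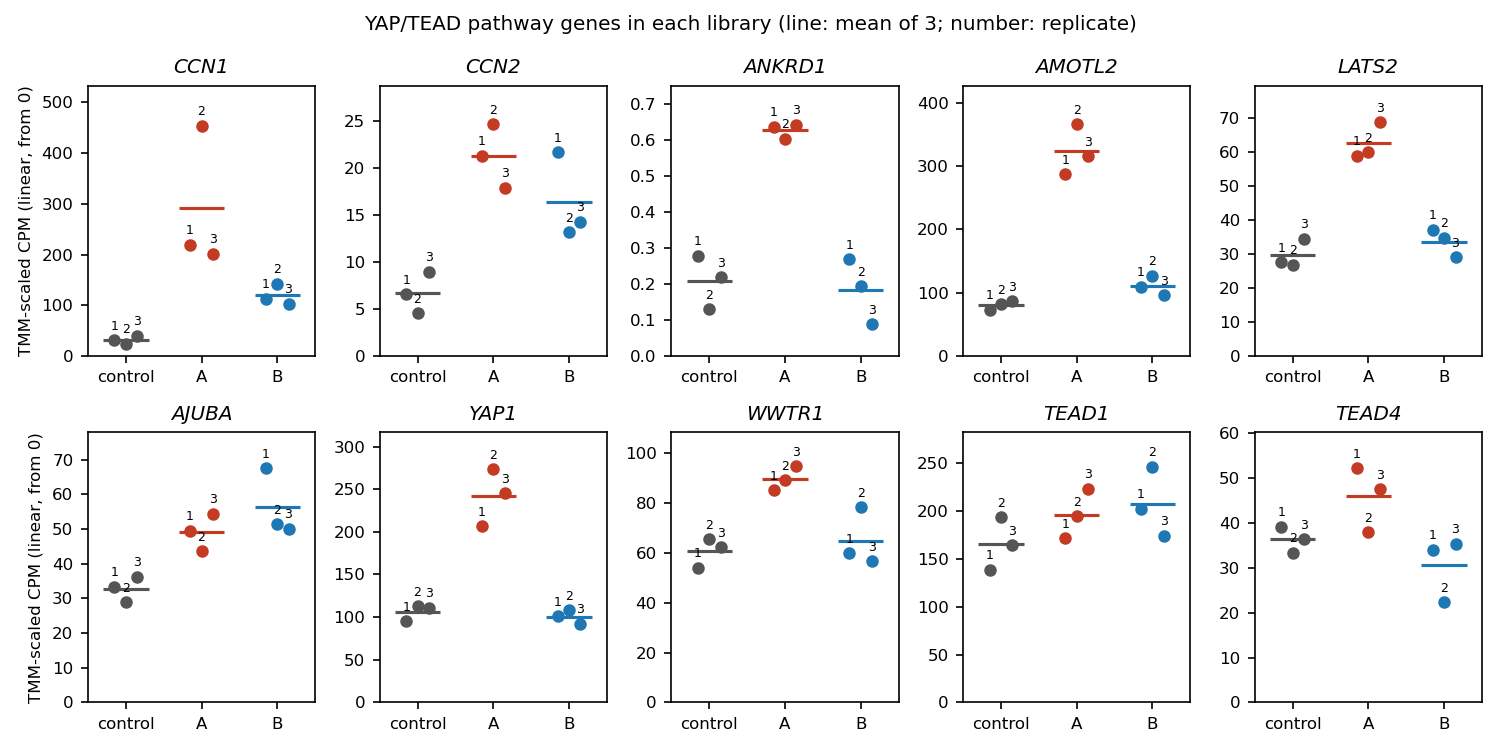
TMM-scaled CPM (y axis, linear from 0) of the 10 genes in each library, by group (x axis: control, siRNA A, siRNA B); points are libraries with their replicate number and lines are means of 3. CCN1, CCN2, AMOTL2 and AJUBA stand above control in all 6 siRNA libraries. The 3 siRNA A libraries stand above all others for CCN1, AMOTL2, YAP1, LATS2, WWTR1 and the nearly silent ANKRD1.

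CCN2, the other secreted CCN protein and the most used readout of YAP activity, rose with both siRNAs. It was at 6.58, 4.56 and 8.96 TMM-scaled CPM in control, 21.3, 24.6 and 17.9 with siRNA A, and 21.6, 13.2 and 14.3 with siRNA B. All 6 siRNA libraries lay above the 3 control libraries, and the 2 siRNA groups overlapped. The log2 difference was 1.56 (SE 0.22, limma, adjusted p = 1.81e-04) with siRNA A and 1.18 (SE 0.22, adjusted p = 0.00201) with siRNA B. Between the siRNAs it was 0.38 (95% interval −0.11 to 0.87, adjusted p = 0.205). CCN2 (chromosome 6, 132269316 to 132272512, GRCh37) overlaps LINC01013 on the other strand, and whether the counting used strand is not given in the sources used here.

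ANKRD1, a cardiac and muscle ankyrin-repeat protein that is also a classic YAP target, was nearly silent in these cells and was not tested. It had 7, 3 and 5 reads in the control libraries, 12, 8 and 12 with siRNA A and 6, 3 and 2 with siRNA B. The siRNA A libraries, at 0.638, 0.605 and 0.643 TMM-scaled CPM, lay above all others, which ran from 0.0877 to 0.279. At this depth 3 reads stand for 0.129 to 0.193 CPM, a counting limit that control replicate 2 and siRNA B replicates 2 and 3 did not exceed in reads.

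AMOTL2, an angiomotin-like scaffold that binds YAP1 and keeps it out of the nucleus, changed more with siRNA A than any other tested gene of the 8. It was at 73.3, 82.0 and 86.0 TMM-scaled CPM in control, 287, 366 and 316 with siRNA A, and 109, 127 and 96.3 with siRNA B. The 3 groups did not overlap. The siRNA A difference was 1.99 (SE 0.13, limma, adjusted p = 1.63e-06). The siRNA B difference was 0.45 (SE 0.13, adjusted p = 0.017), a call that was lost by library totals alone (0.24, adjusted p = 0.149). Leaving out 1 library also ended it for control replicates 1 and 2 (adjusted p 0.0668 and 0.0507) and for siRNA B replicates 1 and 2 (adjusted p 0.0509 and 0.0529). The siRNAs differed by 1.54 (adjusted p = 1.33e-05).

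LATS2, one of the kinases that phosphorylate YAP1, was higher in the siRNA A libraries, at 58.9, 59.9 and 68.8 TMM-scaled CPM against 27.6, 26.8 and 34.5 in control. In the siRNA B libraries it was at 37.1, 34.8 and 29.0, overlapping control. The difference was 1.06 (SE 0.13, limma, adjusted p = 6.63e-05) with siRNA A, 0.18 (95% interval −0.11 to 0.46, adjusted p = 0.316) with siRNA B, and 0.88 between them (adjusted p = 4.25e-04). By library totals alone the siRNA B value turned to −0.03.

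AJUBA, a LIM protein that restrains LATS kinases, had a higher mean with siRNA B than with siRNA A, as TEAD1 did. It was at 33.3, 28.9 and 36.3 TMM-scaled CPM in control, 49.6, 43.6 and 54.5 with siRNA A, and 67.6, 51.4 and 50.1 with siRNA B. Both siRNA groups lay above control and overlapped each other. The difference was 0.57 (SE 0.14, limma, adjusted p = 0.00505) with siRNA A and 0.75 (SE 0.14, adjusted p = 0.00167) with siRNA B. The siRNA A call was lost by library totals alone (0.21, adjusted p = 0.266), and the siRNAs did not differ past the threshold (−0.18, adjusted p = 0.32).

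YAP1 itself more than doubled its level in the siRNA A libraries and not in the siRNA B libraries. Control held 95.3, 113 and 111 TMM-scaled CPM, siRNA A 207, 274 and 245, and siRNA B 101, 108 and 92.1. The siRNA A group lay above both others, and siRNA B overlapped control. The siRNA A mean was 2.27 times control, with a difference of 1.17 (SE 0.12, limma, adjusted p = 2.23e-05). The siRNA B difference was −0.08 (95% interval −0.35 to 0.18, adjusted p = 0.639), and the 2 siRNAs differed by 1.25 (adjusted p = 3.77e-05). YAP1 lies at chromosome 11, 101981178 to 102104155 (GRCh37, plus strand), and overlaps unnamed genes of the other strand.

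WWTR1, the second co-activator, moved the same way by less. It was at 54.0, 65.4 and 62.3 TMM-scaled CPM in control, 85.1, 89.1 and 94.6 with siRNA A, and 59.8, 78.2 and 56.5 with siRNA B. The siRNA A libraries lay above all others. The siRNA A difference was 0.56 (SE 0.13, limma, adjusted p = 0.00354), or 0.20 by library totals alone (adjusted p = 0.223). For siRNA B it was 0.09 (adjusted p = 0.641) and its sign depended on the scaling and on single libraries. The siRNAs differed by 0.47 (adjusted p = 0.0133), a call lost by library totals alone (0.32, adjusted p = 0.0742) and without siRNA B replicate 1 or 3 (adjusted p 0.0551 and 0.0556).

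TEAD1 and TEAD4 did not pass the threshold against control. TEAD1 was at 139, 194 and 164 TMM-scaled CPM in control, 171, 194 and 223 with siRNA A, and 203, 246 and 174 with siRNA B, with overlap in every comparison. Its differences were 0.25 (95% interval −0.09 to 0.59, limma, adjusted p = 0.199) and 0.33 (−0.01 to 0.67, adjusted p = 0.128). TEAD4 was at 39.2, 33.4 and 36.4 in control, 52.3, 38.0 and 47.6 with siRNA A, and 34.0, 22.4 and 35.4 with siRNA B. Its differences were 0.32 (SE 0.17, adjusted p = 0.135) with siRNA A and −0.27 (SE 0.17, adjusted p = 0.256) with siRNA B. The siRNA A value passed with the replicate number as a block (adjusted p = 0.0245) and without siRNA B replicate 2 (adjusted p = 0.0435). Between the siRNAs TEAD4 differed by 0.59 (adjusted p = 0.0187), a call lost by library totals alone (0.43, adjusted p = 0.0846) and without siRNA A replicate 1 or 3 (adjusted p 0.0704 and 0.0595).

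**Figure D2:**
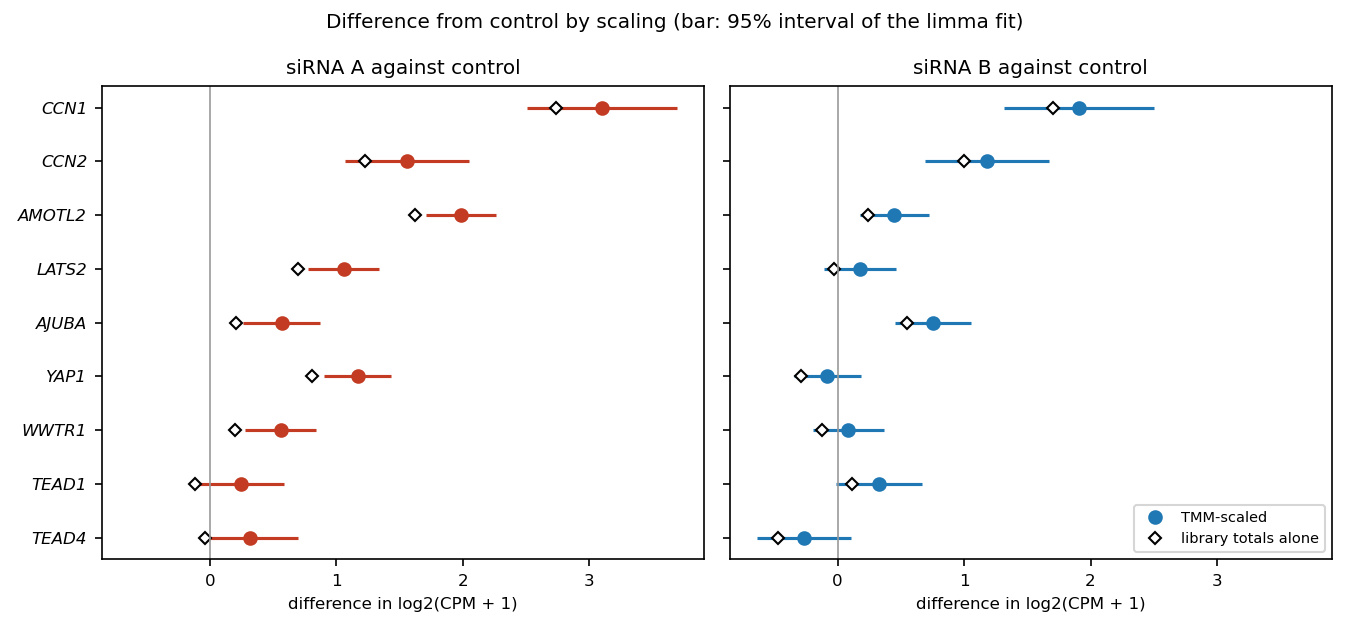
Difference from control in log2(CPM + 1) (x axis) of the 9 genes above the filter (y axis), for siRNA A (left) and siRNA B (right); filled points are TMM-scaled values with their 95% interval and open diamonds are values by library totals alone. The interval of CCN1 is no test, since its rise chose the gene. The totals put every gene lower, with CCN1 at 2.74 and 1.70, and place TEAD1 and TEAD4 below 0 with siRNA A.

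The siRNAs were compared directly because both were designed against SNHG5. The paper lists its siRNAs as differing in the SNHG5 isoforms they target, and the labels do not say which is which. The comparison uses the same siRNA libraries as those with control and is no separate support. Of the 8 tested genes, 5 were higher with siRNA A than with siRNA B (AMOTL2, YAP1, LATS2, TEAD4 and WWTR1) and 0 lower, while 17.6% of all genes were called higher and 19.5% lower. The median difference was 0.53, beside −0.01 over all genes. By library totals alone 3 of the 8 were called (AMOTL2, YAP1 and LATS2), and the share of higher among all called genes went from 47.6% to 27.4%.

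Levels of the genes were set side by side per kilobase of exon. The exon length joins the exons of every annotated transcript of a gene, and can exceed the transcript expressed. For CCN1 it was 3698 bases, nearly the whole gene from 86046444 to 86050272, so its level per kb may be understated. The order below therefore depends on the annotation. In control, YAP1 (16.9 ± 1.53 TMM-scaled CPM per kb), TEAD4 (16.0 ± 1.29), TEAD1 (15.5 ± 2.57) and AMOTL2 (12.4 ± 1.01) came first, each overlapping the next in that order. CCN1 (8.50 ± 2.12) and WWTR1 (7.25 ± 0.704) followed and overlapped each other, then AJUBA (5.58 ± 0.631) and LATS2 (5.28 ± 0.756), which overlapped as well. CCN2 (2.87 ± 0.941) and ANKRD1 (0.117 ± 0.0418) came last and overlapped no neighbour. With siRNA A the level of CCN1 was 78.9 ± 38.1 per kb and that of AMOTL2 49.9 ± 6.16, ahead of YAP1 at 38.3 ± 5.33, and with siRNA B CCN1 was at 32.3 ± 5.48 and YAP1 at 15.9 ± 1.29.

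A wider list of 17 YAP/TAZ target genes had 14 in the table, all tested. With siRNA A, 8 were higher and 3 lower, beside 23.9% and 27.6% of all genes, and the median difference was 0.51. With siRNA B, 6 were higher and 0 lower, beside 15.6% and 18.3% of all genes, and the median was 0.42. The higher genes include CCDC80 with both siRNAs and TGFB2 with siRNA A, which reached the filter through the siRNA libraries, and the share of lower genes with siRNA A was near that of all genes. The list moved in more than 1 direction with siRNA A: MYOF, a membrane-repair protein, fell by 0.90 (SE 0.14, limma, adjusted p = 2.65e-04). NUAK2, a kinase of the AMPK family, had the greatest rise of the list, with 5.86, 4.86 and 5.59 TMM-scaled CPM in the control libraries, 33.5, 81.9 and 31.9 in those of siRNA A, and 13.5, 20.3 and 13.6 in those of siRNA B. Its groups did not overlap, with differences of 2.82 (SE 0.29, adjusted p = 2.25e-05) and 1.36 (SE 0.29, adjusted p = 0.00424) from control and 1.46 between the siRNAs (adjusted p = 0.00266).

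NT5E (CD73), an ecto-enzyme that makes adenosine, rose with both siRNAs, by 0.97 (limma, adjusted p = 6.83e-04) and 1.26 (adjusted p = 2.50e-04). The secreted protein CCDC80 was low, at 0.479, 0.261 and 0.524 TMM-scaled CPM in control against 2.29, 2.49 and 1.77 with siRNA A, and is given without a test, since no control library reached 1 CPM and it entered through the siRNA libraries. TGFB2, VGLL3 and CCN3, in this list and those below, likewise had fewer than 3 control libraries at 1 CPM, so counts of the lists describe the tested genes and no more. GADD45A, a stress-induced growth-arrest gene, rose by 1.19 with siRNA B (adjusted p = 7.33e-04) and differed between the siRNAs by −0.79 (adjusted p = 0.0077). F3 (tissue factor) was higher with siRNA A than with siRNA B by 0.91 (adjusted p = 6.89e-05). The receptor tyrosine kinase AXL moved in opposite directions, at 89.6, 97.5 and 92.7 TMM-scaled CPM in control, 73.8, 77.4 and 76.2 with siRNA A, and 150, 162 and 143 with siRNA B. The 3 groups of AXL did not overlap.

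Of the 6 genes of the Hippo kinase cassette, all tested, 3 were higher and 1 lower with siRNA A (median 0.40), and 2 higher and 0 lower with siRNA B (median 0.31). Over all genes these shares were 23.9% and 27.6% with siRNA A and 15.6% and 18.3% with siRNA B, and nothing particular to the cassette is read from the counts. SAV1, the scaffold of the cassette, rose by 0.75 with siRNA A (limma, adjusted p = 8.53e-04), and the kinase LATS1 by 0.72 (adjusted p = 0.0031). The paired kinases STK3 (MST2) and STK4 (MST1) went apart with siRNA A. STK3 was at 36.4, 36.2 and 39.8 TMM-scaled CPM in control and 56.1, 52.2 and 56.7 with siRNA A, a rise of 0.54 (adjusted p = 7.71e-04), while STK4 went from 83.5, 98.6 and 96.7 to 48.8, 46.0 and 51.8, a difference of −0.91 (adjusted p = 3.43e-05). The siRNA B libraries held 80.3, 89.0 and 89.4 for STK4, and siRNA A minus siRNA B came to −0.81 (adjusted p = 1.48e-04). With siRNA B, LATS1 rose by 0.51 (adjusted p = 0.0296) and STK3 by 0.29 (adjusted p = 0.0408). By library totals alone the calls of LATS1 and STK3 were lost with both siRNAs, and with siRNA B the LATS1 call also ended on leaving out replicate 1 or 2 of control or of siRNA B, and the STK3 call on leaving out any library other than siRNA A replicate 2 or siRNA B replicate 3 or on fitting only the groups compared (adjusted p = 0.0614).

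The 8 upstream regulators gave 1 higher and 3 lower with siRNA A (median −0.24) and 1 higher and 3 lower with siRNA B (median 0.16, of opposite sign to most of its calls). With 27.6% and 18.3% of all genes called lower, and 23.9% and 15.6% higher, the counts do not set this list apart, and what follows concerns single genes. The kinase MAP4K4, which can activate LATS1 and LATS2, was at 147, 163 and 175 TMM-scaled CPM in control, 38.3, 48.8 and 43.0 with siRNA A, and 114, 136 and 127 with siRNA B. Its 3 groups did not overlap, with a difference of −1.88 (SE 0.12, limma, adjusted p = 1.57e-06) for siRNA A and −0.36 (adjusted p = 0.0321) for siRNA B, the latter lost on leaving out replicate 2 or 3 of control, or 1 or 3 of siRNA B. WWC1 (KIBRA), an activating scaffold, was at 117, 131 and 132 in control, 72.5, 72.5 and 76.9 with siRNA A, and 52.4, 48.2 and 51.0 with siRNA B. It fell by 0.76 (adjusted p = 5.76e-05) and by 1.31 (adjusted p = 3.51e-06), further with siRNA B than with siRNA A by 0.54 (adjusted p = 9.73e-04). The tumour suppressor NF2 (merlin), which recruits LATS1 and LATS2 to the membrane, had differences of −0.46 (adjusted p = 0.00426) and −0.74 (adjusted p = 3.75e-04). FRMD6 was the gene that rose, by 0.59 (adjusted p = 0.0385) and 0.74 (adjusted p = 0.0213), and by library totals alone neither call held. Its siRNA A call ended on leaving out any control library, siRNA A replicate 2 or 3 or siRNA B replicate 1, or with no filter on low values (adjusted p = 0.0516), and its siRNA B call on leaving out control replicate 1 or siRNA B replicate 1 or 2.

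Of the 5 genes listed as other TEAD factors and their VGLL cofactors, VGLL1 was at 0 or near 0 and 4 were tested. With siRNA A 1 was higher and 3 lower (median −0.68), and with siRNA B 0 higher and 2 lower (median −0.10), beside 23.9% of all genes higher and 27.6% lower with siRNA A and 15.6% and 18.3% with siRNA B. The higher gene was VGLL3, which entered through the siRNA libraries. TEAD2 was at 22.6, 22.4 and 21.9 TMM-scaled CPM in control, 10.0, 11.9 and 11.9 with siRNA A, and 10.0, 11.9 and 10.9 with siRNA B. Its level was near equal in both siRNA groups, with differences of −0.93 (SE 0.12, limma, adjusted p = 7.35e-05) and −0.96 (SE 0.12, adjusted p = 1.12e-04). VGLL4, which competes with YAP1 for TEAD, was lower with both, by −0.82 (adjusted p = 1.26e-04) and −0.42 (adjusted p = 0.0125). TEAD3 fell with siRNA A by 0.54 (adjusted p = 0.00218) and was higher in siRNA B than in siRNA A libraries (siRNA A minus siRNA B −0.77, adjusted p = 4.39e-04). VGLL3, given without a test, was at 0.718, 0.738 and 1.44 in control and 2.66, 3.70 and 3.91 with siRNA A.

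Among the angiomotin and LIM scaffolds, all 4 tested, 0 were higher and 1 lower in each comparison with control, a share near the 27.6% and 18.3% of all genes called lower. These were WTIP with siRNA A (−0.54, limma, adjusted p = 0.0187) and LIMD1 with siRNA B (−0.55, adjusted p = 0.0101). The WTIP call was lost without siRNA A replicate 2 (−0.33, adjusted p = 0.0618). Of the other CCN genes 2 of 4 were in the table, both low. CCN3, which also entered through the siRNA libraries and is given without a test, was at 0.678, 0.955 and 0.655 TMM-scaled CPM in control and 1.49, 1.59 and 1.18 with siRNA A. CCN6 was lower with siRNA B (−0.69, adjusted p = 0.0054).

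**Figure D3:**
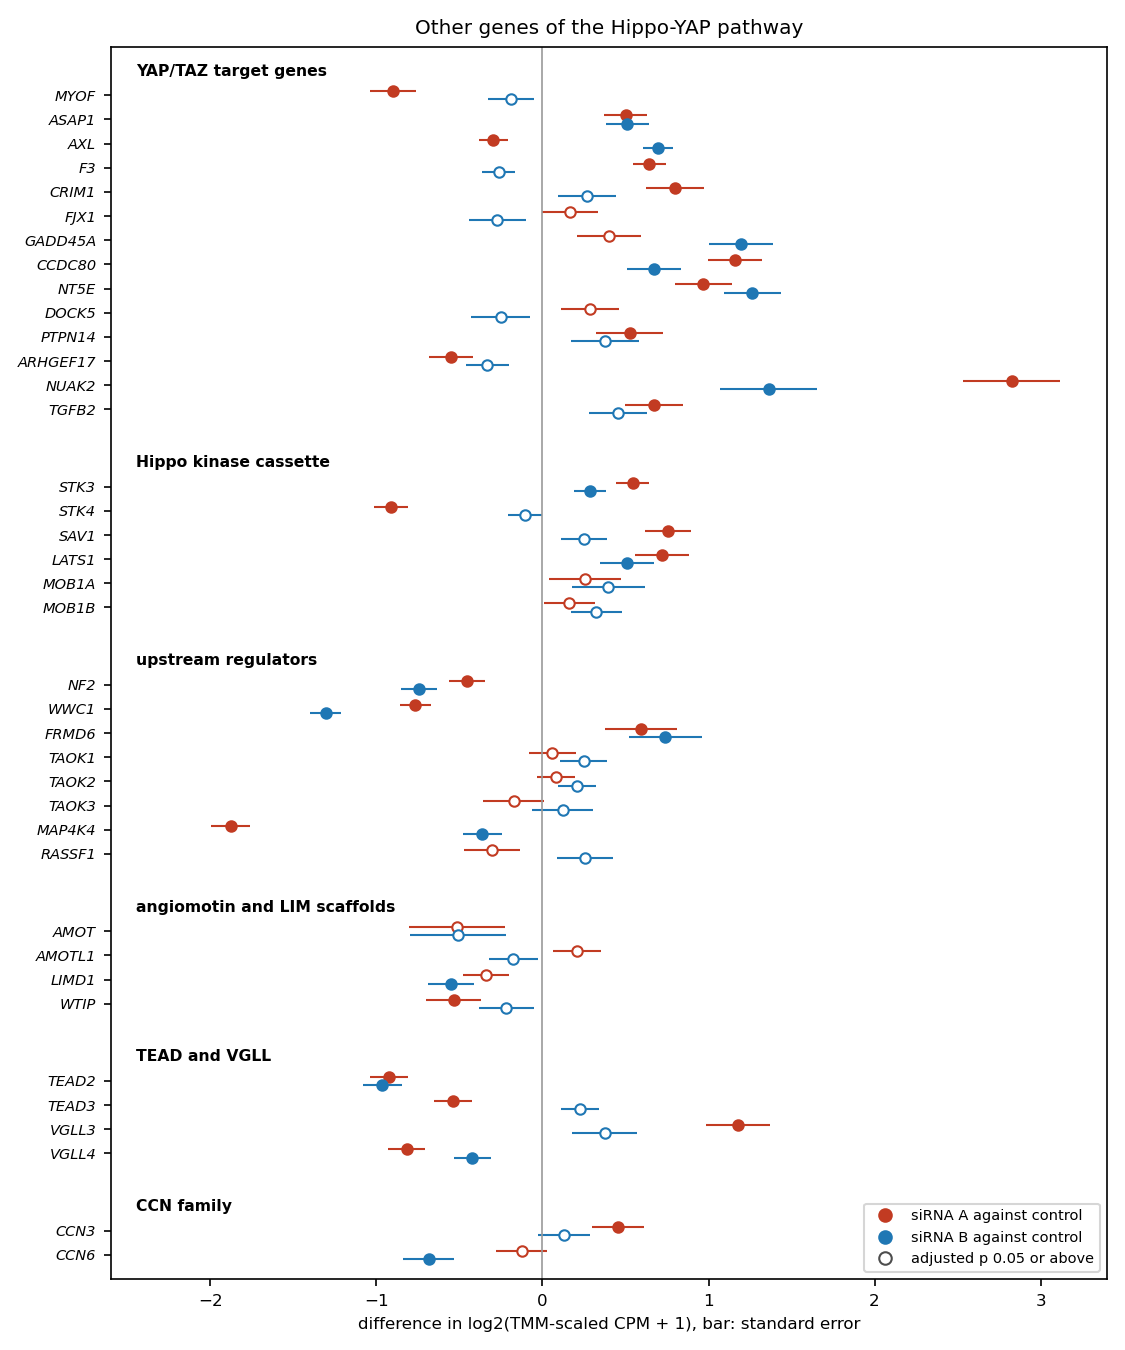
Difference from control in log2(TMM-scaled CPM + 1) (x axis) of the listed pathway genes (y axis) with siRNA A and siRNA B; bars are standard errors and open points have an adjusted p of 0.05 or above, while CCDC80, TGFB2, VGLL3 and CCN3 passed the filter through the siRNA libraries. NUAK2 at 2.82 and MAP4K4 at −1.88 with siRNA A lie farthest from 0, and the values of AXL lie on opposite sides of 0.

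The genes whose pattern over the 9 libraries was most like that of CCN1, by Pearson's r of the log2 values, were CCT4 (0.998), BRD2 (0.996), CCT8 (0.994), FBXO7 (0.994) and RNF139 (0.994). CCT4 and CCT8 encode subunits of a cytosolic chaperonin and BRD2 a chromatin reader. In the pathway NUAK2 came first (0.981, rank 41 of all genes), then CCDC80 (0.978, rank 56) and CCN2 (0.931, rank 430). The 9 points share 3 groups and their libraries, so these values only describe likeness. CCT4 was at 423, 411 and 454 TMM-scaled CPM in control, 649, 729 and 638 with siRNA A, and 564, 581 and 556 with siRNA B, a far narrower range than CCN1, with siRNA A replicate 2 highest in both.

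**Figure D4:**
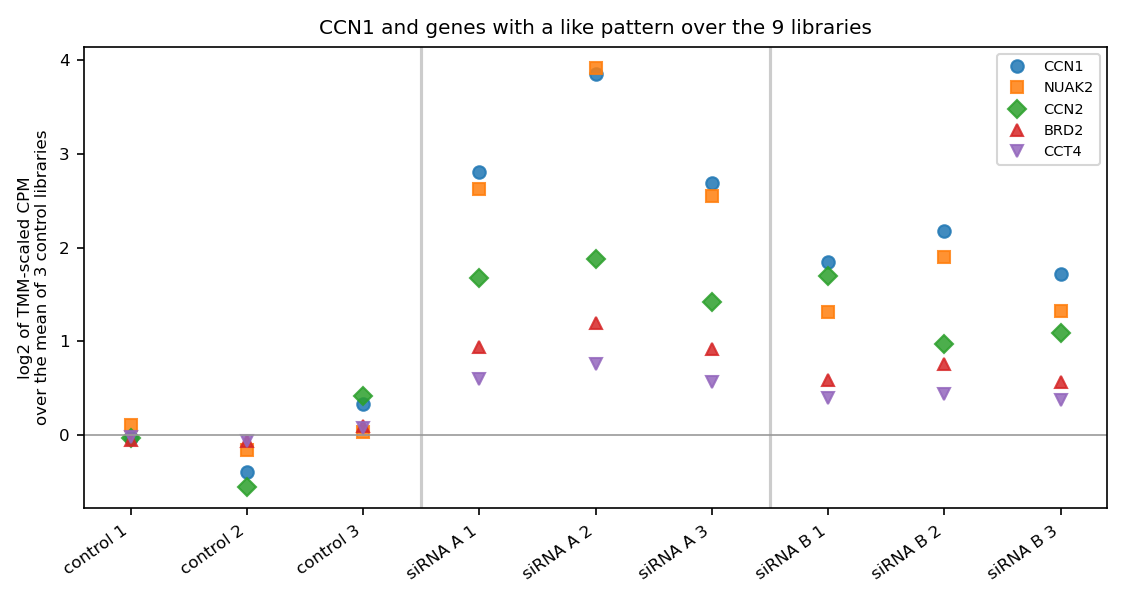
Log2 of TMM-scaled CPM over the mean of the 3 control libraries (y axis) in each of the 9 libraries (x axis) for CCN1, NUAK2, CCN2, BRD2 and CCT4. CCN1 and NUAK2 lie close together with siRNA A replicate 2 at the top, and BRD2 and CCT4 follow the same order over a narrower range.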

How the data were processed

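Poly(A) RNA of HCT116 cells was read as single ends of 50 bases. The authors deposited CPM (a gene's reads over the library total, times a fixed factor) in 1 table of 15354 rows. The submitters' processing notes name TopHat2, HTSeq and the build GRCh37, and strand use is not given in the sources used here. Every deposited CPM value was a whole multiple of 1 read (100% of values, tolerance 0.01 read), so reads were recovered. Of the 15354 identifiers, 14871 were found, version dropped, in GENCODE as lifted to GRCh37, which also gave coordinates and exon lengths. Genes that overlap another gene could hold some of its reads: of the 10 genes these were CCN2, AMOTL2, LATS2, AJUBA, YAP1, WWTR1 and TEAD1.

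Libraries were scaled by TMM factors (edgeR 4.0.16), with a mean of 1.14 in control libraries, 0.886 in siRNA A and 0.988 in siRNA B libraries. The 13893 genes (90.5%) that reached 1 CPM in 3 or more of 9 libraries were fitted on log2(CPM + 1) with limma 3.58.1 in R 4.3.3, with a mean per group and a trended variance, and p-values were adjusted over all these genes. A pseudocount of 1 understates differences of low genes. Intervals are 95% intervals of the fit, and the limit of 3 reads covers counting error only. The fit was run on simulated counts with few and balanced changes, which cannot check the scaling of these libraries. Alternatives were library totals alone, DESeq2 1.42.0 size factors, a pseudocount of 0.1, no filter, the replicate number as a block, edgeR and DESeq2 on recovered reads, only the groups compared, and each library left out in turn. The edgeR quasi-likelihood test on recovered reads called 7160 genes between siRNA A and control, 4780 between siRNA B and control and 5105 between the siRNAs.

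Libraries of a group correlated with r from 0.983 to 0.994 and differed by more than sampling noise. After subtraction of group means, libraries that share a number correlated at 0.65, 0.41 and 0.13 between control and siRNA A. The values were 0.17, 0.44 and −0.39 between control and siRNA B, and 0.20, 0.44 and 0.02 between the siRNAs. Whether a shared number marks a pair cannot be told from these values. The main fit held no block for it, and with the block 7 of the 8 tested genes were higher with siRNA A. The genes, the pathway lists and the tests were chosen with earlier results of these data known. Named were the 10 genes, SNHG5, from each list up to 4 genes per comparison with the greatest differences past the threshold, and for likeness the 5 genes with the highest r with CCN1 plus 3 of the pathway. Plots and sequence searches used Python 3.11.15, pandas 2.3.3, numpy 2.4.6 and matplotlib 3.10.9.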

Additional observations from a re-analysis of the deposited data

Results flagged for a closer look

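AXL was flagged because it was called in opposite directions with the 2 siRNAs and its difference between them also passed the threshold. It differed from control by −0.30 in siRNA A libraries (limma, adjusted p = 0.0166), with 3 of 3 below every control library, and by 0.69 in siRNA B libraries (adjusted p = 1.88e-04), with 3 of 3 above. The siRNA A call of AXL was not followed through the alternative settings or the libraries left out. The difference of siRNA A minus siRNA B was −0.99 (adjusted p = 2.53e-05), which follows from the opposite calls and is no separate support.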

How the results depend on the processing

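By library totals alone the called genes were 1257 higher and 6532 lower for siRNA A against control (main values 3314 and 3831), 958 and 4127 for siRNA B (2172 and 2547), and 1415 higher for siRNA A against siRNA B (2452). Of the listed pathway genes, the 8 tested ones above included, 11, 7 and 8 were then higher in those comparisons (20, 12 and 14), and 12 lower with siRNA B (7). In the main fit 23.9%, 15.6% and 17.6% of all genes were called higher, and 18.3% lower with siRNA B. The main count of 20 includes CCDC80, TGFB2, VGLL3 and CCN3, which passed the filter through the siRNA libraries. Likewise the main count of 12 higher with siRNA B includes CCDC80, and that of 14 between the siRNAs includes CCDC80 and VGLL3. The pathway counts therefore only describe how calls moved with the processing. Leaving out 1 library at a time gave 1395 to 2293 genes higher with siRNA B, lowest without control replicate 2, and 9 to 15 pathway genes higher with siRNA A than with siRNA B, lowest without siRNA B replicate 3. None of the other alternatives moved one of these counts by more than 1.5 times. Differences that were past no threshold changed sign as follows: by library totals alone TEAD1 (−0.12) and TEAD4 (−0.038) with siRNA A, and LATS2 (−0.027) and WWTR1 (−0.12) with siRNA B. With 1 library left out, WWTR1 with siRNA B ran from −0.053 (without siRNA B replicate 2, and −0.00045 without control replicate 1) to 0.18, and TEAD1 between the siRNAs from −0.20 to 0.054 (without siRNA B replicate 2, and 0.019 without siRNA A replicate 1). With the replicate number as a block, 3820 genes were higher and 4273 lower with siRNA A, 2766 and 3025 with siRNA B, and 2985 and 3244 between the siRNAs. Of the calls followed on the 8 tested genes and the named pathway genes, the block changed that of TEAD4 with siRNA A alone. The siRNA A call of AXL was not among those followed. Whether a shared replicate number marks a pair could not be told from the correlations between libraries. Depth limits ANKRD1, VGLL1 and the other genes near 1 CPM. The scaling cannot be checked without spiked-in RNA, so directions are relative to the TMM level. The cause of these shifts was not tested.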
